A study of Homo sapiens with 6 samples.

Results

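The urokinase system was followed through 6 genes of the A549 RNA-Seq data: the plasminogen activators PLAU (urokinase) and PLAT (tissue plasminogen activator), the urokinase receptor PLAUR, and the serpins SERPINE2, SERPINB2 and SERPINA5. They are 6 of the 23180 gene symbols with counts. Each was read from 1 deposited transcript, that with the highest total count in the 6 samples. The members were selected on their roles in this system and on the log2 fold changes and levels of siKMT9α against siControl already known from these samples, so their differences between the groups are given as a description. Where calls of members are counted, the share called among all genes stands beside them, and nothing is read from the count.

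Urokinase and tissue plasminogen activator are secreted serine proteases that cut plasminogen into plasmin, a broad protease of fibrin and matrix. Urokinase is held at the cell surface by its receptor, a GPI-anchored protein, whereas tissue plasminogen activator works mainly on fibrin. Serpins trap the active proteases in covalent complexes. In epithelial tumour cells the system is known for its part in invasion and matrix turnover.

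All samples were A549 cells, a human lung adenocarcinoma line labelled wild type, at passage 11. In the siControl group, 3 samples received a non-targeting siRNA, and in the siKMT9α group 3 samples received siKMT9α#1 against the histone methyltransferase subunit KMT9α, encoded by N6AMT1. RNA was taken 3 days after transfection. The data hold 1 cell line and 1 siRNA per group, so an effect of the siRNA on other transcripts and an effect of the loss of KMT9α cannot be told apart.

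In replicates 1 to 3, N6AMT1 had 10.2, 10.8 and 11.5 CPM (counts scaled to library size with TMM factors) under siControl and 2.87, 3.22 and 3.35 CPM under siKMT9α. Totals over the genes ran from 15551778 to 18568639.5 counts in siControl and from 13740097 to 19832395.5 in siKMT9α. Of the lung epithelial markers, KRT7 stood at 1260 CPM in siControl and 1269 in siKMT9α, KRT8 at 1281 and 528, KRT18 at 2041 and 1210, and CDH1 at 3.39 and 8.62. The summed level of the 6 epithelial markers was 4402 to 4886 CPM in siControl and 2943 to 3130 CPM in siKMT9α, with EPCAM low in both groups (3.86 and 0.593 CPM). Summed endothelial markers did not exceed 1.05 CPM and summed leukocyte markers did not exceed 3.77 CPM in any sample, and summed fibroblast markers were 6.89 to 8.66 CPM in siControl and 3.18 to 3.90 CPM in siKMT9α. The part of these marker shifts in the values that follow was not tested, and in bulk samples fewer cells of a type and less RNA per cell cannot be told apart.

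The promoters of the members were searched for short motifs, as a description. RefSeq promoter windows (GRCh38.p14, 250 bases before to 50 after a start site) were present for 5 members, with 7 windows in all. No window was listed for PLAT. The 4 motifs, searched on both strands, were AP-1 (TGANTCA), the GC box (GGGCGG), the NF-kB motif and the TATA box (TATAAA). No match of a motif overlapped a match of another. The stretches below, in the direction of the gene, carry the matches in capitals, and are shown because they hold, for each member with a match, the match nearest to a start site, with both motifs of SERPINB2. Their hg19 positions were found by matching the windows to GRCh37.
PLAU, GC box at -40: ggcggcgccgGGGCGGgccctgatat
SERPINE2, GC box at -50: caatggctgtGGGCGGaggagggagg
SERPINA5, GC box at -74: ggctgtcccgGGGCGGggccagggag
PLAUR, AP-1 motif at -186: cacaactccaTGAGTCAgggccgagcc
SERPINB2, AP-1 motif at -102: agtaaaatgtTGAATCActcaaaggac
SERPINB2, TATA box at -30: ggcaaagctgTATAAAaccagtcatt

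These stretches lie at chr10:75670840-75670865 on the plus strand for PLAU, chr2:224896230-224896255 on the minus strand for SERPINE2, chr14:95047679-95047704 on the plus strand for SERPINA5 and chr19:44174491-44174517 on the minus strand for PLAUR. For SERPINB2 they lie on the plus strand at chr18:61554827-61554853 and chr18:61554899-61554924. The AP-1 motif was found in 2 of the 7 member windows, against 7.71% of all 35116 windows of this length. The GC box was found in 4 of 7 against 45.0%, the TATA box in 1 of 7 against 11.5%, and the NF-kB motif in 0 of 7 against 1.91%. The PLAU window that holds the GC box has 3 copies of it, at -66, -51 and -40. The other PLAU window, which starts upstream of it, held none of the 4 motifs. The SERPINE2 stretch belongs to a start site 7841 bases inside the deposited span of the gene, and its other window held GC boxes on the opposite strand at -230 and -183. A match is a run of letters and not a shown binding site. Nothing is read from these counts, and a part of the motifs in the differences between the groups was not tested.

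The comparison asks how the transcripts of A549 cells differ after knock-down of this methyltransferase. PLAU was 8.28-fold higher after knock-down, SERPINE2 1.94-fold higher and PLAUR 1.34-fold higher, while PLAT stood at 0.516 of its siControl level. SERPINB2 and SERPINA5 had at most 4.5 counts in any sample. In edgeR's quasi-likelihood fit across 13877 genes, 4 members passed the filter on low counts. At an adjusted p under 0.05 all 4 were called, PLAU, PLAUR and SERPINE2 higher and PLAT lower, as were 75.6% of all genes tested (37.1% of all genes higher and 38.5% lower). At the study's threshold (P under 1e-08 with a log2 fold change beyond 0.26 in either direction) 2 of the 4 were called, PLAU and SERPINE2, against 24.2% of all genes. Of all genes tested, 13.5% were called higher and 10.7% lower at that threshold. These calls are those of the fit used here and not those of the study's own comparison. With the likelihood-ratio test, 5962 of all 13877 genes and all 4 members passed it. The groups did not overlap in any of the 4, and likewise in 77.0% of all genes tested. These counts describe genes that the comparison helped choose.

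The members not called at the study's threshold were PLAUR, with a log2 fold change of 0.42, and PLAT, with -0.95. Both were beyond the limit of 0.26 in size and missed the limit on P. The log2 fold change of PLAT matched that of SERPINE2 in size but came from far fewer counts. The median log2 fold change was 0.69 over the 4 members and -0.01 over all genes tested. Since the choice of members drew on these values, nothing is read from their median. When TMM was replaced by the library size alone, log2 fold changes shifted by -0.11 at the median of all genes, and those of PLAU, SERPINE2, PLAUR and PLAT became 2.94, 0.85, 0.31 and -1.06.

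**Figure D1:**
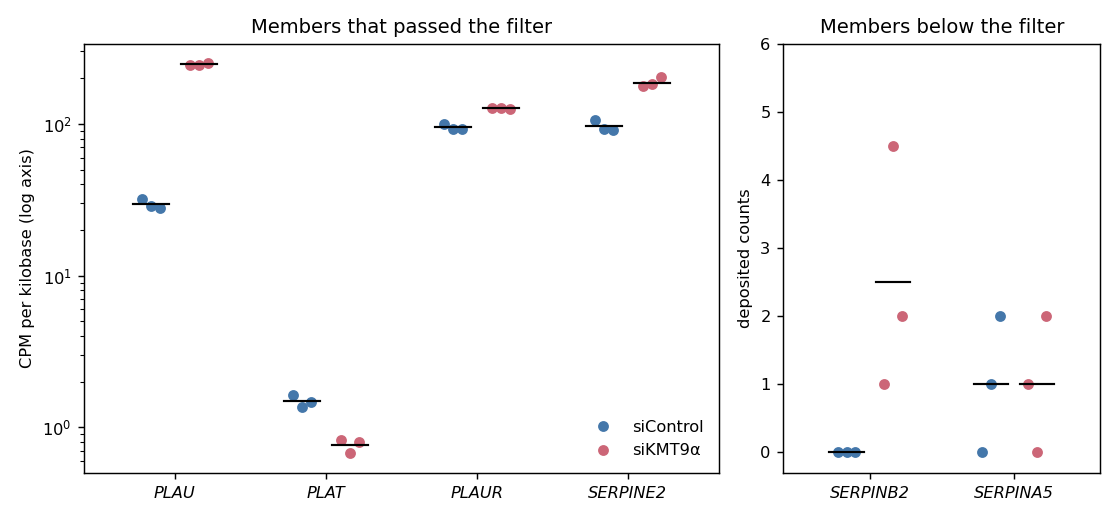
Levels of the members in each sample, with siControl in blue, siKMT9α in red and black lines at the group means (3 samples a group). The left panel shows CPM per kilobase on a log axis, where PLAU goes from 29.7 in siControl to 246 in siKMT9α and PLAT lies below 2 in all samples, and the right panel shows deposited counts of SERPINB2 and SERPINA5, which reach at most 4.5.

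PLAU encodes urokinase, the activator that acts at the cell surface. Its transcript NM_001145031 is 2643 bases long and was deposited on chromosome 10 of hg19 from 75670862 to 75677258. The annotation puts it on the plus strand. Replicates 1 to 3 had 1601.5, 1239 and 1424.5 counts under siControl and 8602, 8776 and 12629.5 counts under siKMT9α. Scaled for depth, these were 85.0, 76.5 and 74.1 CPM in siControl and 650.1, 641 and 661 CPM in siKMT9α. The lowest siKMT9α sample stood far above the highest siControl sample, and the 3 siKMT9α samples lay closer together in relative terms than the 3 siControl samples. The means were 78.5 ± 5.76 CPM and 651 ± 9.67 CPM (SD, n = 3 each), with a log2 fold change of 3.05 (standard error 0.06). Of the 13877 genes tested, 29 had a more positive log2 fold change, and 0.663% had a larger one in size. PLAU was chosen with its log2 fold change known, so this place is a description.

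The second PLAU transcript in the table, NM_002658, is 2356 bases long and had between 99.4% and 100.1% of the counts of the first in each sample. Both transcripts share nearly all of their reads, so the counts do not separate them, and their log2 fold changes were both 3.05 when every transcript was fitted as its own row. Per kilobase of its shorter length, NM_002658 gave PLAU a mean of 33.3 CPM per kilobase in siControl and 276 in siKMT9α.

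The whole deposited span of PLAU, 6397 bases, lies inside that of C10orf55, which the annotation puts on the opposite strand. The exons of these genes share 915 bases, out of 2949 exon bases for PLAU and 2513 for C10orf55. C10orf55 was at 11.95, 10.03 and 10.74 CPM in siControl and at 94.0, 93.2 and 96.9 CPM in siKMT9α, and its log2 fold change was 3.12 (standard error 0.07). Its counts were 14.05%, 13.1% and 14.5% of those of PLAU in siControl and 14.5%, 14.5% and 14.7% in siKMT9α. The ratio of their counts was thus nearly the same in all samples. The use of strand in the counting is not given in the sources used here, so reads of the genes on the shared bases cannot be told apart.

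PLAT encodes tissue plasminogen activator, which endothelial cells release and which is best known for dissolving clots. Its transcript NM_000930 is 3146 bases long and was deposited on chromosome 8 from 42032236 to 42065194. The annotation puts it on the minus strand. Replicates 1 to 3 had 96.5, 69 and 89 counts under siControl and 34.5, 29 and 48.5 counts under siKMT9α. These were 5.12, 4.26 and 4.63 CPM in siControl and 2.61, 2.12 and 2.54 CPM in siKMT9α, with all siKMT9α samples under all siControl samples. The means were 4.67 ± 0.43 CPM and 2.42 ± 0.26 CPM (SD, n = 3 each), and the log2 fold change was -0.95. Its standard error was 0.16, more than that of any other member tested, at counts under 100 in every sample. The endothelial markers PECAM1, VWF, CDH5 and KDR had at most 1, 2, 12 and 6.5 counts in any sample. The other PLAT transcript, NM_033011, held 92.8% to 98.6% of the counts of NM_000930 and had a log2 fold change of -0.96.

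PLAU and PLAT thus differed in opposite directions. On the scale of CPM per kilobase, which allows levels of different genes to be compared, PLAU made up 95.2%, 95.5% and 95.0% of the summed level of both activators in siControl and 99.7% in each siKMT9α sample. PLAU stood 20.1 ± 1.19 times above PLAT in siControl and 322 ± 33.5 times above it in siKMT9α (SD, n = 3 each).

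PLAUR encodes the urokinase receptor, which binds the growth factor domain of urokinase. Its transcript NM_002659 is 1540 bases long and was deposited on chromosome 19 from 44152723 to 44174498. The annotation puts it on the minus strand. Replicates 1 to 3 had 2886.5, 2310 and 2734 counts under siControl and 2593.5, 2680.5 and 3699 counts under siKMT9α. Scaled for depth, these were 153, 143 and 142 CPM in siControl and 196, 196 and 193 CPM in siKMT9α. The raw counts of the groups overlapped, and the scaled levels did not. The means were 146 ± 6.29 CPM and 195 ± 1.42 CPM (SD, n = 3 each), with a log2 fold change of 0.42 (standard error 0.05). This difference was close to the middle of the data, since 54.7% of all genes tested had a larger log2 fold change in size.

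PLAUR had 3 deposited transcripts, and their spans are not all the same. NM_001005377 shares the span of NM_002659 and held 87.8% to 89.2% of its counts. NM_001005376 reaches further at the gene's 3′ end, to 44150247, and held 64.7% to 66.6%. These shares moved little between samples, and the log2 fold changes of the 3 transcripts were 0.42, 0.43 and 0.41. Reads in shared exons were counted for each transcript, so the shares are not isoform fractions.

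The order of the transcript levels of ligand and receptor turned over between the groups. PLAU was at 0.323, 0.313 and 0.304 of the level of PLAUR in siControl replicates 1 to 3 and at 1.93, 1.91 and 1.99 times its level in siKMT9α replicates 1 to 3, all in CPM per kilobase. Messenger RNA of the receptor was in excess in all siControl samples, and that of its ligand in all siKMT9α samples.

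**Figure D2:**
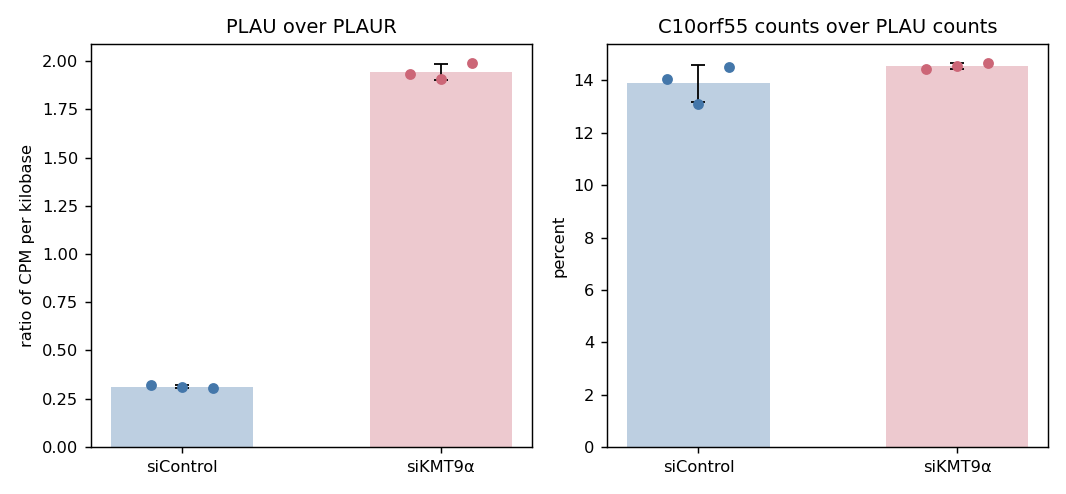
Bars show group means, error bars the SD and points the 3 samples of each group. The left panel shows the ratio of PLAU to PLAUR in CPM per kilobase, near 0.313 in siControl and 1.94 in siKMT9α, and the right panel shows C10orf55 counts as a percentage of PLAU counts, which lie between 13.1% and 14.7% in all samples.

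SERPINE2 encodes protease nexin-1, a secreted serpin that inhibits urokinase, tissue plasminogen activator, plasmin and thrombin. Its transcript NM_006216 is 2242 bases long and was deposited on chromosome 2 from 224839765 to 224904036. The annotation puts it on the minus strand. Replicates 1 to 3 had 4490, 3359 and 3927 counts under siControl and 5235, 5581.5 and 8711 counts under siKMT9α. These were 238, 207 and 204 CPM in siControl and 396, 408 and 456 CPM in siKMT9α. Replicate 1 was the highest siControl sample and replicate 3 the highest siKMT9α sample, and the groups remained well apart. The means were 217 ± 18.9 CPM and 419.7 ± 31.7 CPM (SD, n = 3 each), with a log2 fold change of 0.95 (standard error 0.06). The other SERPINE2 transcripts, NM_001136528 and NM_001136530, held 99.6% to 99.8% and 96.8% to 98.1% of the counts of NM_006216.

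SERPINB2, known as plasminogen activator inhibitor 2, belongs to the intracellular serpins and is induced in inflamed epithelium and in macrophages. Its transcript NM_001143818 lies on chromosome 18 from 61554939 to 61571124. It had 0 counts in all siControl samples and 1, 4.5 and 2 counts in siKMT9α replicates 1 to 3. A count of 0 allows a level of up to 0.164, 0.193 and 0.162 CPM in siControl replicates 1 to 3, taking 3 counts as the limit and covering counting error only. Of the siKMT9α samples only replicate 2 was above 3 counts, at 0.329 CPM, so no fold is given. The gene missed the filter on low counts. Its other transcript, NM_002575, had the same counts.

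SERPINA5, the protein C inhibitor, is a plasma serpin made mainly in liver and kidney and also inhibits urokinase. Its only deposited transcript, NM_000624, lies on chromosome 14 from 95047731 to 95059457. Replicates 1 to 3 had 0, 1 and 2 counts under siControl and 1, 0 and 2 counts under siKMT9α, under the limit of 3 counts in all samples. Its level was not measurable at this depth in either group.

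SERPINB2 and SERPINA5 stand in clusters of serpin genes, most of which also had few counts. Upstream of SERPINB2, SERPINB7 was at 7.01 ± 0.75 CPM in siControl and 8.04 ± 0.63 CPM in siKMT9α (SD, n = 3 each), and its log2 fold change of 0.20 came with adjusted p = 0.124 in edgeR's quasi-likelihood test. Downstream of it, SERPINB10 had 0 counts in every sample. Beside SERPINA5, SERPINA4 had 0 counts in every sample and SERPINA3 was at 2.23 ± 0.52 CPM and 1.89 ± 0.25 CPM (SD, n = 3 each), with a log2 fold change of -0.24 and adjusted p = 0.305.

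Ordered by CPM per kilobase, the members of siControl cells were SERPINE2 at 96.6 ± 8.43, PLAUR at 94.8 ± 4.08, PLAU at 29.7 ± 2.18 and PLAT at 1.48 ± 0.14 (SD, n = 3 each). SERPINE2 and PLAUR did not differ beyond their spread there, and their order changed from sample to sample. In siKMT9α cells the order was PLAU at 246 ± 3.66, SERPINE2 at 187 ± 14.1, PLAUR at 127 ± 0.92 and PLAT at 0.77 ± 0.08 (SD, n = 3 each), with every neighbouring pair further apart than its spread. PLAU was below SERPINE2 and PLAUR in siControl and above both in siKMT9α. SERPINE2 was at 1.07, 0.999 and 0.987 times the level of PLAUR in siControl and at 1.39, 1.43 and 1.62 times in siKMT9α. Not all inhibitors of urokinase are among the members, so the balance of activators and inhibitors is not given.

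Among siControl samples, replicate 1 had the highest CPM of PLAU, PLAT, PLAUR and SERPINE2 alike. Without it, their log2 fold changes were 3.13, -0.87, 0.47 and 1.05, and PLAUR then passed the study's threshold. Over all 6 ways to leave out a sample, the log2 fold change of PLAU ran from 3.02 to 3.13, that of SERPINE2 from 0.89 to 1.05, that of PLAUR from 0.41 to 0.47 and that of PLAT from -1.0 to -0.87.

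**Figure D3:**
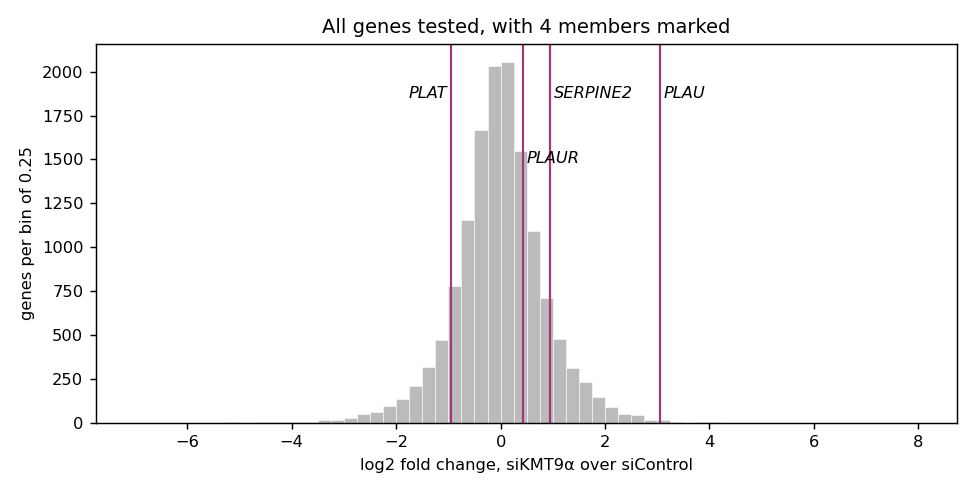
Number of genes per bin of 0.25 in log2 fold change (siKMT9α over siControl) for the 13877 genes tested, with lines at the values of 4 members. PLAU at 3.05 lies in the sparse upper tail, and PLAUR at 0.42 within the bulk of genes.

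Genes with the profile most like that of each member over the 6 samples were found by Pearson's r on log2(CPM + 1), among genes with a mean of at least 10 CPM. For PLAU these were BTG1 (r = 0.99993), SOX9 (0.99984) and SLC26A6 (0.99978). For SERPINE2 they were OSTC (0.99980), ZMPSTE24 (0.99972) and AFF4 (0.99960), and for PLAUR they were ASB3 (0.99931), RPS6KB1 (0.99916) and RNF111 (0.99910). PLAT was most like MCAM (0.99840), ZNF652 (0.99751) and TTC21B (0.99725). The samples form 2 groups, and r mostly follows the difference between them: 1270 genes had r over 0.99 with PLAU, 513 with SERPINE2, 397 with PLAUR and 38 with PLAT.

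Around the members, 7 lists of genes gave the setting, by role. Of plasminogen and its cell surface binders, 4 of 5 listed genes were tested and 1 passed the study's threshold, a share near the 24.2% of all genes. ANXA2, annexin A2, which docks plasminogen and tissue plasminogen activator at the membrane, rose by 2.08 on the log2 scale, with 424 ± 20.6 CPM under siControl against 1794 ± 54.8 CPM under siKMT9α (SD, n = 3 each, adjusted p = 5.72e-17, edgeR's quasi-likelihood test). Its partner S100A10 had a log2 fold change of 0.27, the enolase ENO1 of -0.40 and the plasminogen receptor PLGRKT of -1.08 (adjusted p = 8.22e-05, 2.00e-06 and 4.30e-08 in the same test). PLGRKT missed the study's threshold, and passed it with RLE factors, the library size alone, DESeq2 or the likelihood-ratio test and without siControl replicate 1. ENO1 missed it too, and passed it with DESeq2 or the likelihood-ratio test. Over this list, 2 genes passed the study's threshold with a minimum of 10 counts or every transcript as its own row, and 3 with no filter. Plasminogen itself, PLG, was the listed gene not tested, with at most 3.5 counts in any sample.

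Of the clearance receptors and partners of the urokinase receptor, 6 of 7 were tested and 1 passed the study's threshold (16.7%, against 24.2% of all genes). VTN, vitronectin, a matrix ligand of the urokinase receptor, fell by 1.93 on the log2 scale, with 37.7 ± 2.52 CPM under siControl against 9.89 ± 0.59 CPM under siKMT9α (SD, n = 3 each, adjusted p = 7.28e-14, edgeR's quasi-likelihood test). LRP1, which takes up urokinase bound to its inhibitors, was at -0.07 and VLDLR at 0.01 in log2 fold change (adjusted p = 0.406 and 0.891). With the library size alone LRP1 was at -0.18 (adjusted p = 0.0479) and VLDLR at -0.10. SORL1 was at 0.96 with adjusted p = 6.68e-08, and passed the study's threshold with RLE factors, DESeq2 or the likelihood-ratio test and without siControl replicate 1 or siKMT9α replicate 1. Over this list, 2 genes passed that threshold with no filter or every transcript as its own row.

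Of 33 other serpins, 11 were tested, 6 were called at an adjusted p under 0.05 (5 higher and 1 lower), and 2 passed the study's threshold, both higher. Among all genes these shares were 75.6% and 24.2%, above those of the serpins. SERPINB9, an intracellular inhibitor of granzyme B, was called with a log2 fold change of 1.80 (adjusted p = 4.95e-13, edgeR's quasi-likelihood test). Of 10 activating or related serine proteases, F12 and HABP2 were tested, at -0.48 and -1.70 (adjusted p = 0.00453 and 5.92e-04 in the same test). Neither passed the study's threshold, and HABP2 had at most 17.5 counts in any sample. Of 8 inhibitors outside the serpins, 3 were tested, with SPINT2 at 0.59 (adjusted p = 1.77e-09), SPINT1 at -1.53 (3.75e-04) and TFPI2 at -0.02 (0.797). Only SPINT2 passed the study's threshold, and it missed it without siControl replicate 3, without siKMT9α replicate 2 and in the fit blocked by replicate number.

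PLAUR carries 3 Ly6/uPAR domains, and 6 of 15 other genes with this fold were tested, of which 3 were higher and 1 lower at the study's threshold, where 13.5% of all genes were higher and 10.7% lower. The list was chosen with earlier results known, and nothing particular to it is read from this count. CD59, the membrane inhibitor of complement, was 2.30-fold higher, and the log2 fold changes of LYPD1, LY6K and LY6E were 1.24, 1.73 and -0.75 (adjusted p between 4.39e-14 and 5.87e-10, edgeR's quasi-likelihood test). The log2 fold change of PLAUR, 0.42, was nearer to 0 than those of all 4.

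**Figure D4:**
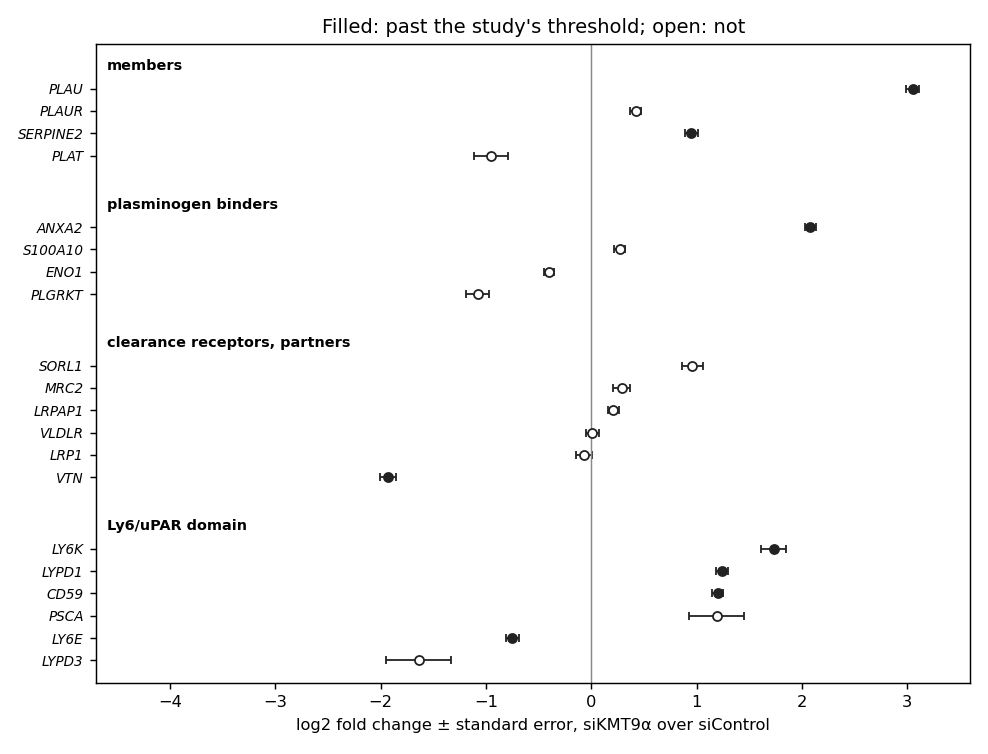
Log2 fold change (siKMT9α over siControl) with its standard error for the 4 members tested and for all tested genes of 3 of the lists. PLAU at 3.05 and ANXA2 at 2.08 lie furthest to the right, and VTN at -1.93 furthest to the left.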

How the data were processed

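The deposited values are estimated counts for each RefSeq transcript, in steps of 0.5 and not normalized, which the authors made with HOMER (analyzeRepeats) after alignment by STAR to hg19. Reads in shared exons enter several transcripts, so 1 transcript per symbol was used. The authors also deposited a linear ratio (fold change), p-values and adjusted p-values of their own edgeR comparison, and these were not used here. A column of transcript lengths, deposited in bases (another kind of value), gave CPM per kilobase. The 1182 rows without symbol or counts were dropped.

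Rounded counts entered edgeR 4.0.16 under R 4.3.3 (TMM factors 0.96 to 1.04, filterByExpr, quasi-likelihood F test, two-sided, Benjamini-Hochberg over all genes tested). Standard errors were taken as the size of the log2 fold change over the square root of F. The fit was also run on simulated counts in which far fewer genes changed than were called here. That run does not measure the error of the calls in these data. Replicates of a group differed by more than sampling noise (1.36 to 5.25 for the chi-square per gene, and 106.6 to 140.5 for pairs across groups). The labels call them biological replicates. Members and lists were chosen with earlier results of these data known. Named genes were the members, N6AMT1, genes overlapping a member, neighbouring serpins, the 3 genes with the most similar profile, and from each list the 3 largest changes in each direction past the study's threshold, with every gene of lists of at most 5 tested. For some genes that this rule picks the result is not reported here. Alternatives were RLE factors, the library size alone, no low-count filter, a minimum of 10 counts per sample, DESeq2 1.42.0, the likelihood-ratio test, every transcript as its own row, a block for replicate number, and leaving out each sample.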

Additional observations from a re-analysis of the deposited data

How the results depend on the processing

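The log2 fold change of N6AMT1 kept its direction and an adjusted p under 0.05 under all 14 alternative settings. The members were chosen on this comparison, so nothing is read from the stability of theirs. The number of members past the study's threshold was 2, and it was 3 with DESeq2 or with no filter (PLAUR added) and 4 with the likelihood-ratio test. Over all genes, 3357 of 13877 passed it, against 4773 with DESeq2, 6070 of 18751 with no filter and 5962 with the likelihood-ratio test. Calls thus rose over all genes in these settings too, and nothing is read from the members' counts. When every transcript was tested, 6767 rows passed it, and 18897 rows, in place of 10492 genes, had an adjusted p under 0.05. With no filter SERPINB2, at 0 counts in siControl, also entered the calls at an adjusted p under 0.05 (5 members, beside 11148 of all 18751 genes). The library size alone changed the split of calls at the study's threshold from 1878 higher and 1479 lower to 1516 higher and 1862 lower, and that at an adjusted p under 0.05 from 5150 and 5342 to 4359 and 6212. It moved the mean level in siKMT9α to 237 CPM per kilobase for PLAU and to 122 for PLAUR. The second transcript gave PLAU 33.3 CPM per kilobase in siControl and 276 in siKMT9α, and PLAUR 123 in siKMT9α. Leaving out each sample gave 2326 to 4085 genes at the study's threshold and 2 to 3 members.

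Samples sharing a number showed no joint deviation (correlations of their deviations from the group means of -0.16, 0.06 and -0.13), and 1 of 6 samples correlated best with its own number. Under a fit with the replicate block, the study's threshold was passed by 2342 genes, 974 of them lower, and the log2 fold changes were 3.05 for PLAU, -0.95 for PLAT, 0.42 for PLAUR and 0.96 for SERPINE2. Depth limits SERPINB2 and SERPINA5, whose counts stayed near the limit of 3.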

Other observations

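A list of 11 genes of the initiation of clotting and of thrombin sensing was described beside the urokinase system. Of these, 8 were tested, and at the study's threshold 4 were higher and 2 lower, against 24.2% of all genes called. The lists were chosen with earlier results of these data known, so the shares called are a description. THBD, thrombomodulin, which turns thrombin towards the activation of protein C, rose by 1.76 on the log2 scale, with 62.6 ± 5.05 CPM under siControl against 212 ± 15.0 CPM under siKMT9α (SD, n = 3 each, adjusted p = 6.03e-15, edgeR's quasi-likelihood test). The protease-activated receptors F2R and F2RL1 rose by 1.48 and 1.60 on the log2 scale, and their relative F2RL2 fell by 1.92 (adjusted p between 2.57e-15 and 6.30e-14). TFPI, the tissue factor pathway inhibitor, was at 1.21 in log2 fold change (adjusted p = 3.61e-11). Tissue factor, F3, was higher by 1.23 without passing the study's threshold (adjusted p = 1.75e-07), and passed it with DESeq2 or the likelihood-ratio test and without siControl replicate 1. With no filter, 7 genes of this list passed that threshold. PROCR was called lower at -0.67 and missed the threshold in the fit blocked by replicate number and without siControl replicate 2, siControl replicate 3, siKMT9α replicate 1 or siKMT9α replicate 2. Over all 7 lists, 15 of 40 genes tested passed the study's threshold (37.5%, against 24.2% of all genes), 11 higher and 4 lower. Among all genes tested, 13.5% were called higher and 10.7% lower there. Nothing is read from these pooled counts.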
